A study of Bos taurus with 16 samples.

Results

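The fatty acid uptake and oxidation genes described here are SLC27A2, ACSL5, ABCD3, HADHA, ECI2 and BDH2. They are 6 of the 4452 genes that the array's annotation names alone for a spotted cDNA clone, and they are carried by 8 of its 8448 clones, or 16 of its 16896 spots. ECI2 and ACSL5 have 2 clones each and the others 1. All spots with 1 of these symbols were taken, and each of the 8 clones was measured in every RNA and entered the fit of 5537 clones. The genes were selected on their log2 differences between amplified and unamplified RNA, so those differences are given as a description, with no p-value for any of them.

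Cattle kidney RNA was compared before and after linear amplification on a custom cDNA array with 2 colours, to test a method meant for single bovine embryos, by the series title. In linear amplification, RNA is turned into cDNA and transcribed back in vitro. Total RNA without amplification is called round 0, and RNA amplified 1, 2 or 3 times is called rounds 1, 2 and 3, with replicates named 1 and K at each round. Each of these 8 RNAs was hybridised on 2 arrays of opposite dye, 16 arrays in all, against a reference standard RNA that was itself amplified for 2 rounds. The labels give no age, sex or breed, and do not say whether 1 and K are different animals, so that the spread between them may be technical.

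Cells burn long-chain fatty acids in steps. The fatty acid enters the cell, is joined to coenzyme A, and is then shortened in mitochondria or, for very long and branched chains, in peroxisomes; part of the product can travel as ketone bodies. The proximal tubule of the kidney relies heavily on this pathway for its energy. SLC27A2 is a fatty acid transporter that also activates very long chains, ACSL5 is an acyl-CoA synthetase, and ABCD3 is a carrier that brings acyl-CoA into peroxisomes. HADHA is the alpha subunit of the mitochondrial trifunctional protein, ECI2 is an isomerase that prepares unsaturated chains for oxidation, and BDH2 is a hydroxybutyrate dehydrogenase.

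Values below are kidney over reference on the log2 scale after subtraction of each array's median, so that 0 is the array's typical clone and 1 a doubling. They are given for replicate 1 and then replicate K, each the mean of its dye swap. Which channel stands on top in the deposited ratios is not stated. The likely direction, with kidney marker genes above the reference, was taken; under the opposite one all signs here would be reversed. A ratio compares kidney with reference for 1 clone only, and in bulk RNA fewer cells of a type and less RNA per cell cannot be told apart. Of the spots on an array, 83.9% to 95.0% had a ratio. The 4 round 0 arrays were deposited with 3 decimals in 100% of cells and the 12 amplified arrays in 84.2% to 88.4%, so that round 0 cannot be told apart from an unequal handling of its files. The round 1, replicate 1, Cy3 array holds 52 numbers outside the range of a log ratio, which were left out. The differences between rounds 1 and 0 printed for single clones of these genes, and counts of calls against round 0, are also given without it. Gaps between clones and correlations are not.

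The courses over the rounds differed between clones. The ECI2 clone at spot 5837 lay far below the reference at round 0 and above it at round 1. So did the mean of HADHA, although its only Cy5 array with a value at round 0 lay above the reference, at 0.56. SLC27A2 was above the reference at every round and higher in amplified RNA. ABCD3 peaked at round 1 and was lowest at round 3, while BDH2 and the ECI2 clone at spot 320 were highest at round 3.

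**Figure D1:**
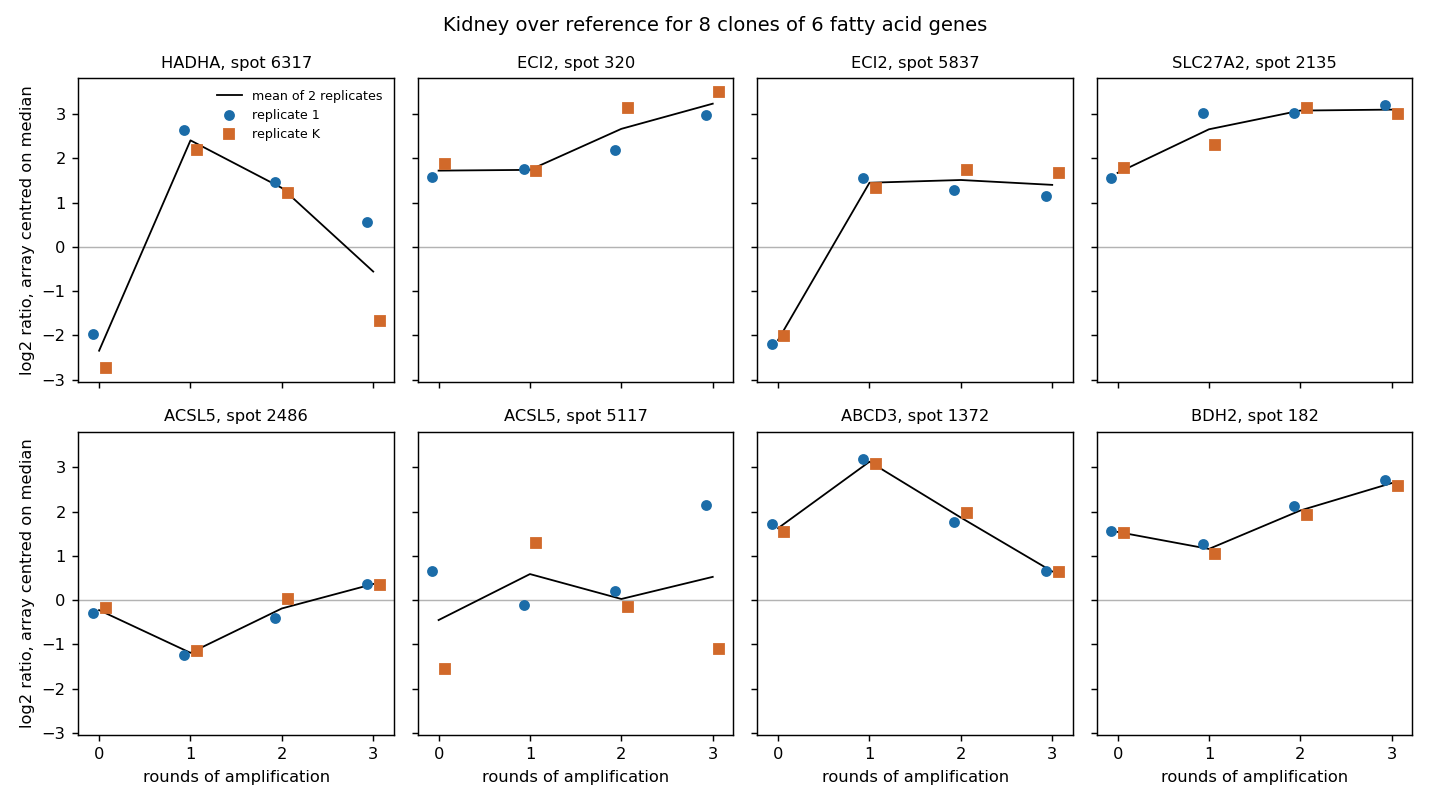
Log2 ratio of kidney over reference (vertical axis, array centred on its median) against rounds of amplification (horizontal axis) for 8 clones; circles are replicate 1, squares replicate K, and the line joins their means. ECI2 at spot 5837 goes from -2.10 to 1.45 between rounds 0 and 1 and stays there, ABCD3 goes from 3.13 at round 1 to 0.65 at round 3, and the replicates of HADHA at round 3 and of ACSL5 at spot 5117 lie far apart.

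Uptake at the cell surface is represented by SLC27A2. Its ratio was 1.57 and 1.78 at round 0, 3.03 and 2.29 at round 1, 3.04 and 3.13 at round 2, and 3.20 and 3.01 at round 3. Both round 0 values lie below all 6 amplified values, whereas round 3 overlaps both round 1 and round 2. In order, the means were 3.11 ± 0.14 (SD, n = 2) at round 3, 3.08 ± 0.07 at round 2, 2.66 ± 0.52 at round 1 and 1.68 ± 0.15 at round 0, and the neighbours among the amplified rounds differ by less than their spread. Against round 0 the differences were 0.99, 1.41 and 1.43 (SE 0.29) at rounds 1, 2 and 3, and the first was 0.94 without the round 1, replicate 1, Cy3 array. The clone gave a value on all 32 of its spot readings, and duplicate spots of an array differed by 0.149 on average, against a median of 0.44 over all tested clones. Without centring of the arrays its round 1 difference was -0.02, beside a shift of -1.04 in the median of all clones.

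Activation by ACSL5 was measured by 2 clones of unequal quality. The clone at spot 2486 had -0.28 and -0.17 at round 0, -1.23 and -1.15 at round 1, -0.40 and 0.03 at round 2, and 0.38 and 0.35 at round 3. Its round 1 values are the lowest of the 8 and its round 3 values the highest, while rounds 0 and 2 overlap. Round 1 differed from round 0 by -0.97 (SE 0.22), or -0.80 without the round 1, replicate 1, Cy3 array, and round 3 from round 1 by 1.56 (1.39 without it). The clone at spot 5117 gave 0.66 and -1.55 at round 0, -0.11 and 1.29 at round 1, 0.22 and -0.16 at round 2, and 2.15 and -1.09 at round 3. Its replicates lie so far apart (SD up to 2.29) that every pair of rounds overlaps, and no order of its rounds can be read. At round 0 it had 4 of 8 spot values, on 1 array per RNA, of opposite dye in the replicates, and its duplicate spots differed by 1.34 on average.

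Import into peroxisomes is represented by ABCD3, whose replicates lay close together at every round. It had 1.72 and 1.54 at round 0, 3.19 and 3.07 at round 1, 1.77 and 1.97 at round 2, and 0.66 and 0.64 at round 3. No 2 rounds overlap, although round 2 lies only 0.24 (SE 0.20) above round 0. In order, the means were 3.13 ± 0.08 (SD, n = 2) at round 1, 1.87 ± 0.14 at round 2, 1.63 ± 0.13 at round 0 and 0.65 ± 0.02 at round 3. The step from round 0 to 1 was 1.50 (1.55 without the round 1, replicate 1, Cy3 array), the difference between rounds 3 and 0 was -0.98, and that between rounds 3 and 1 was -2.48 (-2.53 without that array). The course was seen with kidney in either dye: between rounds 3 and 1 the difference was -2.02 in the Cy3 arrays and -2.94 in the Cy5 arrays. Without centring, the round 1 step was 0.49.

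Mitochondrial oxidation is represented by HADHA, whose values at rounds 0 and 3 rest on few spots. Its ratio was -1.96 and -2.73 at round 0, 2.64 and 2.18 at round 1, 1.46 and 1.21 at round 2, and 0.57 and -1.68 at round 3. Rounds 1 and 2 lie above the reference in both replicates and round 0 below it, while the replicates of round 3 fall on either side of 0 (SD 1.59). The difference from round 0 was 4.75 (SE 0.71) at round 1, then 3.68 and 1.79, and rounds 3 and 1 differed by -2.97. Without the round 1, replicate 1, Cy3 array the first was 4.72 and the last -2.93.

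At round 0 only 3 of the 8 HADHA spots had a value, 1 on each of 3 arrays, and those arrays disagreed. In replicate 1 the Cy3 array gave -4.47 and the Cy5 array 0.56, and in replicate K the Cy3 array gave -2.73. The round 1 difference was therefore 5.67 in the Cy3 arrays and 2.20 in the Cy5 arrays. At round 3, with 5 of 8 spots, the Cy3 array of replicate 1 gave 2.47 and the Cy5 arrays -1.33 and -1.68. The gap between the dye means of HADHA was 4.16 at round 0 and 3.98 in size at round 3, whereas its median over all tested clones was 0.36 and 0.62. At rounds 1 and 2 all 8 spots had a value and the means of the dyes lay within 0.69 and 0.12 of each other. HADHA and the ACSL5 clone at spot 5117 leave the fit when a value is required on both arrays of every dye swap; 7.62% of tested clones lack an array value at round 0.

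**Figure D2:**
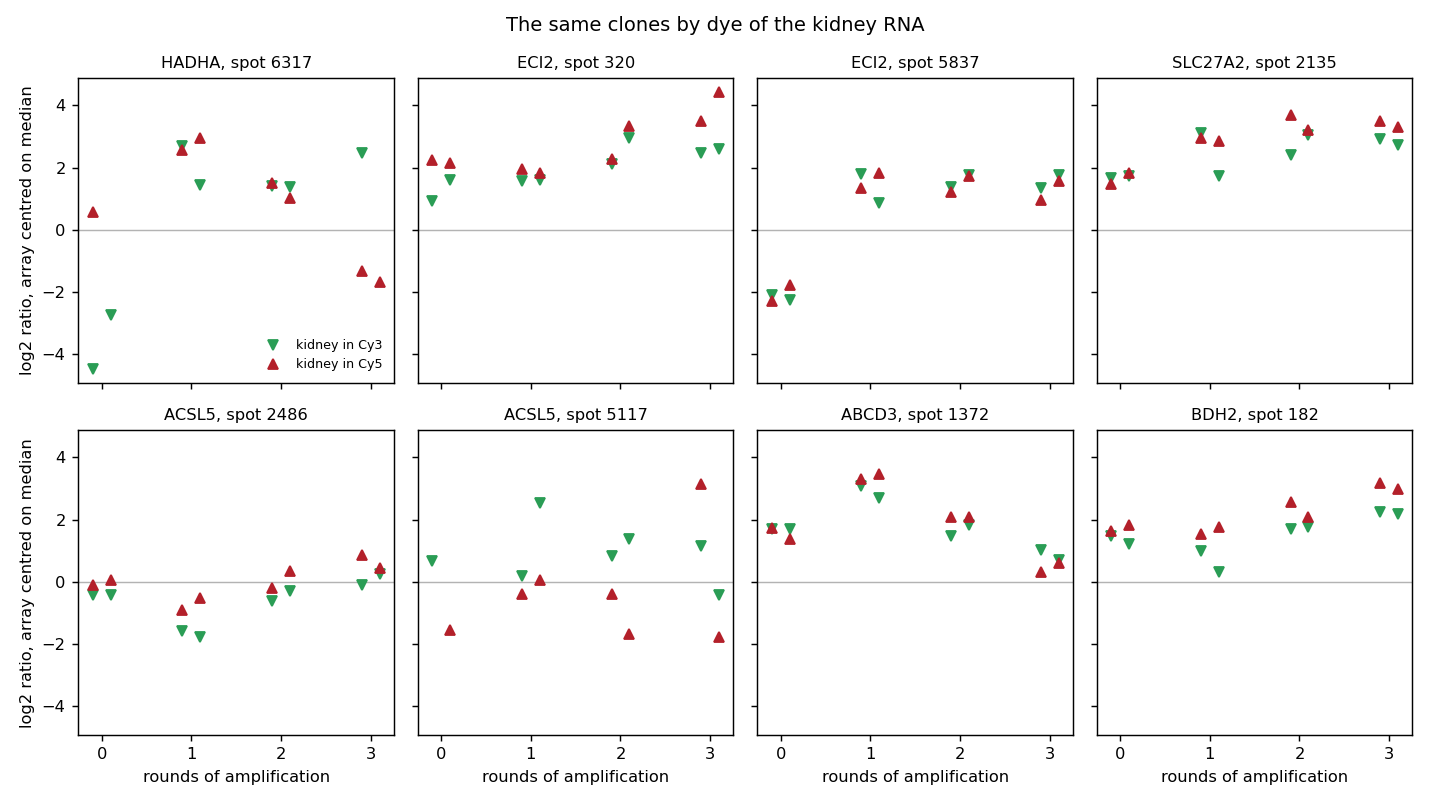
The same clones array by array, with log2 ratio on the vertical axis and rounds of amplification on the horizontal axis; downward triangles are arrays with kidney in Cy3 and upward triangles those with kidney in Cy5, replicate 1 to the left of replicate K. The 4 arrays of ECI2 at spot 5837 lie together at each round, between -2.30 and -1.78 at round 0, whereas HADHA is split by dye at rounds 0 and 3.

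The ECI2 clone at spot 5837 crossed the reference between rounds 0 and 1, as the mean of HADHA did, but with all 32 spot values present. It had -2.19 and -2.02 at round 0, 1.57 and 1.34 at round 1, 1.30 and 1.73 at round 2, and 1.14 and 1.67 at round 3. The amplified rounds overlap one another, and none of their 6 values comes near those of round 0. The 4 arrays of round 0 gave -2.08, -2.30, -2.25 and -1.78, all below the reference, and the 12 arrays of later rounds were all above it. Differences from round 0 were 3.56, 3.62 and 3.51 (SE 0.28), which is 11.8-fold, 12.3-fold and 11.4-fold, and rounds 3 and 1 differed by -0.05. Without the round 1, replicate 1, Cy3 array the first was 3.44.

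The other ECI2 clone, at spot 320, did not lie below the reference at any round. It had 1.58 and 1.88 at round 0, 1.77 and 1.72 at round 1, 2.19 and 3.15 at round 2, and 2.98 and 3.50 at round 3. Rounds 0 and 1 overlap, rounds 2 and 3 overlap, and the later pair lies above the earlier. Duplicate spots of this clone differed by 0.75 on average, against 0.31 for the clone at spot 5837. At round 3 its mean was 2.52 in the Cy3 arrays and 3.96 in the Cy5 arrays. The differences from round 0 were 0.02, 0.94 and 1.51 (SE 0.36), with 0.11 for the first without the round 1, replicate 1, Cy3 array and -0.99 without centring.

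Agreement between the clones of ECI2 was therefore low at round 0, closest at round 1 and lower again at rounds 2 and 3. Its clones stood 3.83 apart at round 0, 0.29 at round 1, 1.16 at round 2 and 1.84 at round 3. Over 1297 pairs of clones from 905 genes the median gap was 0.42, 0.61, 0.52 and 0.51 at these rounds. Farther apart than ECI2 were 11 pairs (0.848%) at round 0, and 72.5%, 22.4% and 8.02% of pairs at rounds 1, 2 and 3. The ACSL5 clones stood 0.22, 1.78, 0.21 and 0.16 apart, and at round 1, where 8.87% of pairs had a larger gap, the clone at spot 2486 was the lower. These gaps use means of the clone at spot 5117, whose replicates had an SD of 1.56, 0.98, 0.27 and 2.29. Its small gaps at rounds 0 and 3 are therefore no sign of agreement. The files do not tell which stretch of a transcript a clone holds.

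**Figure D3:**
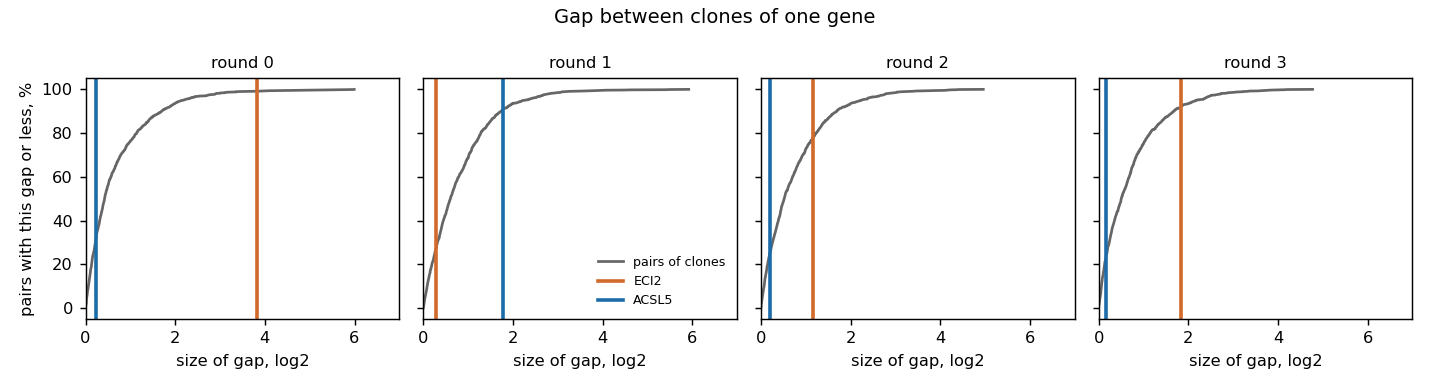
Size of the log2 gap between clones that carry the same gene (horizontal axis) against the percent of 1297 pairs with that gap or less (vertical axis), 1 panel per round; the upright lines mark ECI2 and ACSL5. ECI2 lies at the far end at round 0 (3.83) and among the closer pairs at round 1 (0.29), while ACSL5 is widest at round 1 (1.78).

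Ketone body metabolism is represented by BDH2. It had 1.56 and 1.53 at round 0, 1.27 and 1.05 at round 1, 2.12 and 1.93 at round 2, and 2.71 and 2.58 at round 3. No 2 rounds overlap, and the order from low to high was round 1, 0, 2 and 3. By dye, rounds 1 and 0 differed by -0.68 in the Cy3 arrays and by -0.08 in the Cy5 arrays, which overlap. The differences from round 0 were -0.38, 0.48 and 1.11 (SE 0.20), and rounds 3 and 1 differed by 1.49. Without the round 1, replicate 1, Cy3 array the first was -0.25 and the last 1.35.

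At adjusted p under 0.05 (limma, Benjamini-Hochberg over 5537 clones), 3 of the 8 clones passed upward at round 1 (HADHA, ECI2 at spot 5837 and ABCD3) and 1 downward (ACSL5 at spot 2486). The share of all tested clones was 5.4% upward and 7.87% downward. At round 2, 3 passed upward (HADHA, ECI2 at spot 5837 and SLC27A2) and 0 downward, against 4.39% and 6.79% of all. At round 3, 4 passed upward (both ECI2 clones, SLC27A2 and BDH2) and 1 downward (ABCD3), against 4.57% and 7.04%. Between rounds 3 and 1, 0 passed upward and ABCD3 alone downward, against 0.0% and 0.289%; at unadjusted p under 0.05 there were 633 higher and 543 lower among all clones. The median difference of the 8 clones was 1.01, 0.71 and 1.27 at rounds 1, 2 and 3, and -0.03, 0.01 and 0.00 over all clones. The genes were chosen for such changes and the 3 comparisons share the round 0 RNAs, so nothing is read from these counts. Without centring, the round 1 differences of HADHA, ACSL5 at spot 2486 and BDH2 were 3.07, -1.98 and -1.39. The round 3 difference of HADHA was 0.66 without round 3 replicate 1 and 2.92 without round 3 replicate K.

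None of the other tested clones of the pathway was called higher than at round 0. The genes described above were selected on such differences and taken out before counting. The selection thus shaped this count, which cannot be set against theirs. Of 171 other genes listed for uptake and activation, mitochondrial oxidation, peroxisomal oxidation, ketone bodies and regulation, 45 were tested, by 58 clones. With 0 higher at each round, 5, 3 and 3 were lower at rounds 1, 2 and 3 (8.62%, 5.17% and 5.17%); at unadjusted p under 0.05, limma gave 2, 7 and 11 higher and 20, 10 and 7 lower. Over all 5537 clones the unadjusted counts were 756, 756 and 813 higher (13.7%, 13.7% and 14.7%) and 1004, 953 and 936 lower (18.1%, 17.2% and 16.9%). The median difference was -0.43, -0.27 and -0.16.

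**Figure D4:**
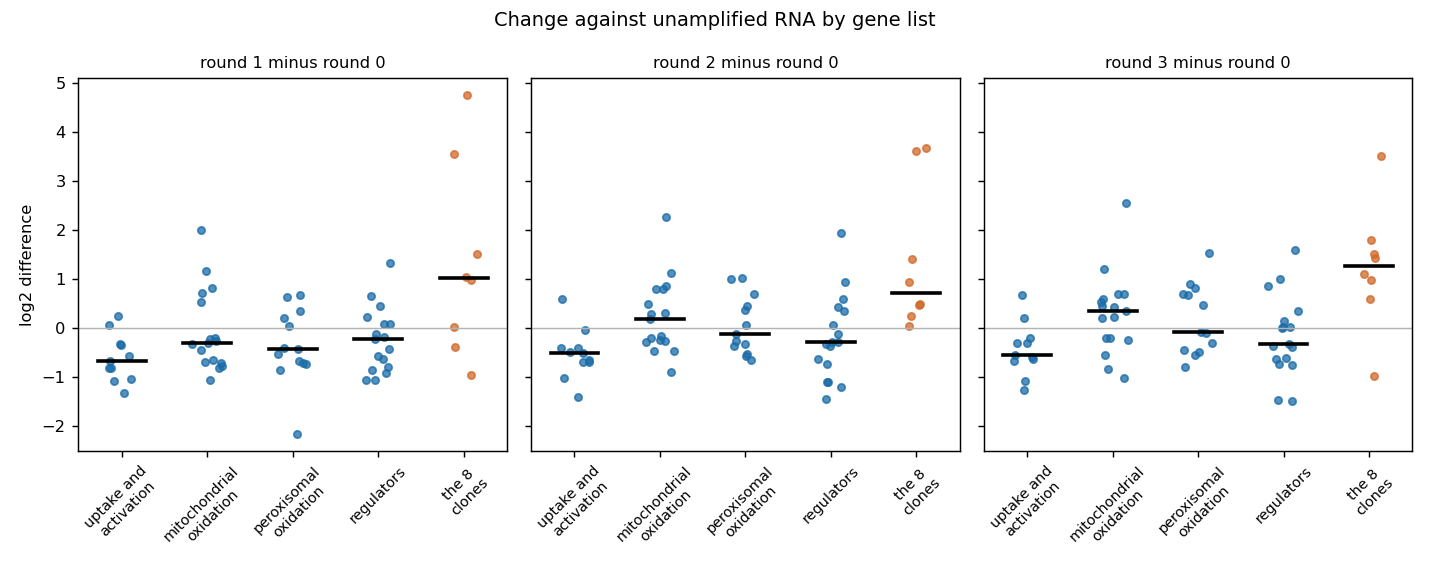
Log2 difference from round 0 (vertical axis) for clones of 4 gene lists with the 6 genes taken out, and for their 8 clones at the right, 1 panel per round; each point is a clone and the bar a median. The medians of uptake and activation, peroxisomal oxidation and regulators lie below 0 at all 3 rounds. That of mitochondrial oxidation goes from -0.31 to 0.35, while the 8 clones on the right were selected with these differences known.

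In uptake and activation, 1 of 11 clones was lower at each round and 0 were higher. It carried FABP5, a fatty acid binding protein, with 0.13 and 0.69 at round 0 and -0.88 and -0.98 at round 1. FABP5 fell by 1.34 (SE 0.24) at round 1 (limma, adjusted p = 0.0236), by 1.42 at round 2 and by 1.27 at round 3. Its 3 other clones were not called, with -0.36, -0.82 and -0.58 at round 1, -0.51, -0.70 and -0.40 at round 2, and -0.32, -0.31 and 0.20 at round 3. SLC27A1, of the same transporter family as SLC27A2, did not pass and stood at 0.96, 0.29, 0.48 and 0.36 over rounds 0 to 3, and ACSL1 stood at 2.35, 2.42, 2.30 and 2.14.

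In mitochondrial oxidation, 0 of 17 clones passed at any round. At unadjusted p under 0.05, limma gave 2 higher and 5 lower at round 1 (11.8% and 29.4%), 4 higher and 1 lower at round 2 (23.5% and 5.88%) and 5 higher and 1 lower at round 3 (29.4% and 5.88%), to be read beside the shares over all clones given above. CPT1A, the carnitine transferase that admits long chains to mitochondria, stood at 2.06, 2.58, 2.93 and 2.75 in 1 clone and at 2.32, 3.49, 3.12 and 2.74 in the other. HADH, the dehydrogenase for shorter chains, stood at 2.77, 2.51, 3.07 and 3.46. At round 0, 16 of the 17 clones lay above the reference, where the ECI2 clone at spot 5837 lay below it. The mean of HADHA lay below it too, but from few spots that disagreed by dye.

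The list for peroxisomal oxidation also holds genes that do not oxidise fatty acids. Of its 13 tested clones, 5 carry peroxins, which build the organelle (PEX2, PEX5, PEX10, PEX16 and PEX19), and others carry GNPAT, catalase and MPV17, a mitochondrial membrane protein. At round 1, 2 of the 13 were lower, and 0 passed at rounds 2 and 3. At unadjusted p under 0.05, limma gave 0 higher and 4 lower at round 1, 1 higher and 0 lower at round 2, and 5 higher and 1 lower at round 3, which is 0.0% and 30.8%, 7.69% and 0.0%, and 38.5% and 7.69%. ACAA1, the peroxisomal thiolase, had 2.16 and 2.16 at round 0 and -0.77 and 0.73 at round 1 in 1 clone, a fall of 2.18 (SE 0.54, limma adjusted p = 0.0467). The other ACAA1 clone had -0.74 and was not called. GNPAT, which starts ether lipid synthesis and does not oxidise fatty acids, fell by 0.86 (SE 0.22, limma adjusted p = 0.0491). The calls of ACAA1 and GNPAT were lost without the round 1, replicate 1, Cy3 array. PHYH, for branched chains, stood at 2.43, 3.06, 3.12 and 3.25, and catalase (CAT) at 2.93, 2.51, 2.98 and 3.41, neither passing.

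Between rounds 3 and 1 most other clones of the mitochondrial and peroxisomal lists lay above 0, whereas ABCD3 and HADHA lay below it. ECI2 had 1.50 at spot 320 and -0.05 at spot 5837, and 4 of the 8 clones of the selected genes lay above 0. All 13 clones of the peroxisomal list, peroxins included, had a difference above 0, from 0.07 to 1.39 with a median of 0.47. Of 17 mitochondrial clones 14 did, with a median of 0.56, against 53.5% of all tested clones. ABCD3 had -2.48 and HADHA -2.97. By dye, HADHA had 0.41 in the Cy3 arrays and -4.26 in the Cy5 arrays. Its replicate K had a value only in Cy5 at round 3, so its mean there weighs the dyes unequally. None of these 30 list clones passed. At unadjusted p under 0.05, limma gave 11 higher and 1 lower, beside 11.4% and 9.81% of all tested clones. The peroxisomal count was 11 without the round 1, replicate 1, Cy3 array and 10 without round 3 replicate K.

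Among regulators, 2 of 17 clones were lower at each round. PDK4, the kinase that holds pyruvate back when fatty acids are burnt, had 1.69 and 2.12 at round 0 and 0.94 and 0.74 at round 1. It fell by 1.07 (SE 0.25) at round 1 (limma, adjusted p = 0.0421), by 1.46 at round 2 and by 1.50 at round 3. Its round 1 call was lost without the round 1, replicate 1, Cy3 array. MED1, a coactivator of nuclear receptors, fell by 1.07 at round 1 in the clone at spot 4138 and by 1.11 and 1.48 at rounds 2 and 3 in the clone at spot 904. At each round the 2 other MED1 clones were not called. They had -0.64 and -0.81 at round 1, -0.30 and -0.64 at round 2, and -0.63 and -0.37 at round 3. Of the MED1 calls, only that at round 3 held without the round 1, replicate 1, Cy3 array. No clone of the other ketone body genes was tested.

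For comparison, 26 clones of fatty acid synthesis and storage had 3 higher and 1 lower at each round. SREBF1, a transcription factor of lipid synthesis, rose by 2.13, 2.33 and 1.69, and AGPAT3, of glycerolipid synthesis, by 1.23, 1.29 and 1.34. PNPLA2, a triglyceride lipase, rose by 1.43, 1.55 and 1.54 in 1 clone, while its other clone had -0.21, 0.04 and -1.75 and was not called. HACD2, of chain elongation, fell by 1.61, 1.54 and 1.44 in 1 of 3 clones. Without the round 1, replicate 1, Cy3 array AGPAT3 and PNPLA2 kept their call at no round, and SREBF1 at round 2 only.

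Some clones of other genes followed courses close to these, by Pearson correlation over the 8 RNAs, which share reference and arrays. For BDH2 the closest was HADH, of mitochondrial oxidation (r = 0.989), then ESRP2 (0.985). For ABCD3 they were RHOB (0.996), which stood at 0.82, 2.85, 1.38 and -0.38, and HSP90AA1 (0.989). For ECI2 at spot 5837 they were NTAN1 (0.990) and PRPF31 (0.988), for HADHA ZCCHC8 (0.961) and TMEM139 (0.951), and for SLC27A2 TF (0.987) and PTPRH (0.984). The course of HADHA rests on few spots at rounds 0 and 3, with an SD of 1.59 at round 3, so its matches are uncertain too. For ACSL5 the rule takes the clone at spot 5117, whose replicates lie too far apart for its course to be matched, so no gene is named.

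Cell type markers moved as follows, and their part in the courses above was not tested. The 21 clones of 13 kidney marker genes had median ratios of 2.97, 2.78, 2.75 and 2.59, with 3, 3 and 5 lower and 0 higher against round 0. Their summed linear ratio was 316.5 and 376.9 at round 0 and 186.6 and 135.8 at round 3. Without the clone of GPX3, left out after its values were seen, the sums were 236.6 and 255.1 at round 0 and 184.0 and 132.3 at round 3. Of the adipose list, 4 clones of 3 genes (CFD, LIPE and CIDEA) were tested, with medians of -0.41, -0.53, -0.69 and -0.14 and summed linear ratios from 2.44 to 3.97; CFD was lower at each round. Immune markers (13 clones) had 1, 0 and 2 higher and 0 lower, and stroma and vessel markers (23 clones) 2, 3 and 2 higher and 4, 4 and 3 lower. The summed linear ratio of stroma and vessel markers was 111.8 and 103.8 at round 0 and 49.9 and 55.9 at round 3. That of immune markers was 13.0 and 15.2 at round 0 and 15.2 and 21.7 at round 3. No blood marker was tested.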

How the data were processed

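For 15 arrays the deposited numbers are log2 ratios between channels. Their scanner, background correction and normalization were not given in the sources used here. For the Cy3 array of replicate 1 at round 1 the deposited column also holds log2 ratios, but it was recorded under the unit score because 52 of its numbers, within -26 to 3827, lie outside their range. Numbers beyond 10 in size, the recurring 16.61 included, were treated as missing. Arrays with kidney in Cy3 were sign-turned, arrays were centred on the median of the clones with a listed gene, and duplicate spots (correlation 0.496 to 0.822 within an array) and then dye swaps were averaged. The fit used limma 3.58.1 under R 4.3.3 (tables read by data.table, version 1.17.8) with a mean per round, on the 5537 listed clones with values in both replicates of every round, with Benjamini-Hochberg adjustment and a threshold of 0.05. With 2 RNAs a round the spread is pooled over rounds (4 residual and 2.4 prior degrees of freedom). The script was tested on simulated data.

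Members, gene lists and rules were chosen with earlier results of these data known. Named are all member clones, every called clone of the pathway and synthesis lists whose replicates do not overlap, at most 10 each way, and the closest clones of 2 other genes for each member gene except ACSL5; the levels given for uncalled genes were chosen after their values were seen. The labels do not say whether the replicate numbers pair samples across rounds, and the main fit did not pair them. Residual correlation was over 0.1 in 1 of 6 pairs of rounds, which cannot settle this. Counts from a fit with the replicate number as a block are given below. Sequences, genome positions and signal intensities were not used here.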

Additional observations from a re-analysis of the deposited data

How the results depend on the processing

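Of 600 differences of the 8 clones recomputed under alternatives, 578 kept their sign and 22 changed it. The 8 clones were selected on such differences, so how often their calls held is a description and no support for them. With only rounds 0 and 1 fitted, none of the 8 was called at round 1. Leaving out each RNA in turn, the calls of ECI2 at spot 5837 held in 8 of 8 runs at each round and those of HADHA in 5 (round 1) and 4 (round 2). ABCD3 held in 6 at round 1, 2 at round 3 and 0 between rounds 3 and 1, SLC27A2 in 2 at rounds 2 and 3, BDH2 in 4, and ECI2 at spot 320 and ACSL5 at spot 2486 in 2. The ACSL5 clone at spot 5117 ranged from -0.64 (without round 3 replicate 1) to 2.60 (without round 3 replicate K) at round 3. In these runs FABP5 held in 5, 5 and 3 at rounds 1 to 3, lost at least without round 0 replicate K or either replicate of the later round (highest adjusted p = 0.1001, 0.0943 and 0.117). PDK4 held in 0, 4 and 5, MED1 in 0, 0 and 5, and ACAA1 and GNPAT in 0, with adjusted p up to 0.174, 0.169, 0.156 and 0.203. SREBF1 held in 6, 5 and 5, HACD2 in 5, 4 and 4, AGPAT3 in 2, 2 and 1 and PNPLA2 in 0, 2 and 2.

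Counts are given for rounds 1, 2 and 3 against round 0 and then round 3 against round 1, where all tested clones had 735 (299 higher, 436 lower), 619 (243, 376), 643 (253, 390) and 16 (0, 16) calls and the pathway lists 5, 3, 3 and 0. Without centring they were 1868 (39 higher, 1829 lower), 67 (24, 43), 130 (21, 109) and 0, and 34, 0 and 0 in the pathway lists; the median of all clones then shifted by -1.04, -0.08, -0.34 and 0.71. In a fit of the 16 single arrays with dye as a term they were 1289, 1244, 1322 and 526, and 14, 10, 11 and 6. That fit takes the 2 arrays of an RNA nearly as separate samples (consensus correlation -0.08), so its larger counts are not evidence of more changes. With only the compared rounds the counts were 2, 148, 257 and 0, and 0 for each in the pathway lists. Without the round 1, replicate 1, Cy3 array the counts were 346 (164 higher, 182 lower), 340 and 310, and 1 at round 1 in the pathway lists. The round 1 calls of ACSL5 at spot 2486, PDK4, MED1, ACAA1, GNPAT, SREBF1, PNPLA2 and AGPAT3 were then lost. At round 3 those of ABCD3, BDH2 and ECI2 at spot 320 were lost too. With a value required on both arrays of every dye swap, an alternative chosen after seeing the data, round 3 against round 1 had 232, and the pathway lists 8, 6 and 3 at rounds 1, 2 and in that comparison. With clones of no listed gene included, the pathway lists had 2 at round 1. With the replicate number as a block, the counts were 629, 521, 567 and 12, and the pathway lists had 2 at round 1. Leaving out 1 RNA gave 108 to 464, 22 to 528, 91 to 541 and 0 to 3, and 0 to 2, 0 to 2 and 0 to 4 in the pathway lists. Except for the smaller numbers of samples or clones in some of these fits, the cause was not tested. The number of arrays limits the precision.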
